A study of Homo sapiens with 12 samples.

Results

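The beta-like globin cluster is a run of related genes on chromosome 11 that encode the non-alpha chains of hemoglobin. The genes described here are HBE1, HBG2, HBG1, HBD and HBB, together with the noncoding gene BGLT3, which were taken from the count table by gene name. They are 6 of the 58735 genes listed, and all 6 passed the filter on low counts that left 20821 genes to test.

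The genes lie in the order in which they are used during development. HBE1 encodes the epsilon chain of embryonic hemoglobin, HBG2 and HBG1 the G-gamma and A-gamma chains of fetal hemoglobin, HBD the delta chain of the minor adult hemoglobin, and HBB the beta chain of the main adult hemoglobin. A distant enhancer, the locus control region, contacts 1 part of the cluster at a time, and the change from fetal to adult globin is held in place by repressors of the gamma genes. BGLT3 is transcribed from the stretch between the gamma genes and HBD and has been linked to gamma-globin expression.

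RNA was sequenced from K562, a human erythroleukemia line driven by the fusion kinase BCR-ABL1. Nilotinib is an inhibitor of that kinase, and hemin, the oxidised form of heme, makes K562 cells accumulate hemoglobin. The 12 libraries came from 4 groups of 3 biological replicates: mock DMSO (vehicle, no hemin), mock nilotinib (0.1 μM nilotinib, no hemin), hemin DMSO (vehicle and 50 μM hemin for 24 h) and hemin nilotinib (pretreatment with 0.1 μM nilotinib, then 50 μM hemin for 24 h). All groups are 1 cell line with 1 fusion kinase, with no group of normal erythroid cells. Library names carry 0 for the mock cells and 24 for the hemin cells, and the methods, which give 24 h of pretreatment, name collection times of 0 and 24 h without saying from which treatment they count. If the mock cells were collected when hemin was added, the hemin comparisons and the interaction also differ by 24 h in culture and, with nilotinib, by 24 h of exposure, which cannot be told apart from hemin. In bulk RNA, a change in the number of expressing cells and a change in RNA per cell cannot be told apart either.

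The libraries held 33457078 to 50506990 counts, and in them the 6 genes took between 0.0153% and 0.243% of all counts. Of the 8 erythroid markers, which include genes of the cluster itself, GATA1 had group means of 158 to 376 CPM (counts scaled to library size), and all 8 markers passed the filter. The 7 myeloid markers summed to 79.7 to 86.4 CPM in mock DMSO, 15.4 to 18.6 in mock nilotinib, 58.8 to 71.4 in hemin DMSO and 8.34 to 11.2 in hemin nilotinib. The 6 megakaryocyte markers summed to 37.8 to 64.4, 15.5 to 25.0, 31.5 to 70.3 and 9.43 to 15.8 CPM in the same order, and the 4 lymphoid markers to 103 to 105, 50.3 to 60.9, 56.1 to 92.8 and 33 to 46.8 CPM. MPO, PF4, PPBP and MS4A1 were each at a mean of 0.174 CPM or lower in every group. The 8 erythroid markers summed to 1303 to 2156, 6134 to 7359, 989 to 1168 and 4076 to 6991 CPM in the same order of groups. The 3 adult red cell markers HBB, SLC4A1 and CA1 summed to 11.4 to 61.4, 4309 to 5970, 8.10 to 11.5 and 5438 to 5954 CPM. HBB took little of these sums, with group means of 0.181, 0.515, 1.12 and 0.928 CPM. SLC4A1 had means of 27.0, 4639, 5.64 and 4956 CPM, and CA1 of 9.69, 612, 2.79 and 734 CPM. The hemin DMSO libraries stood apart, with 1.45% to 2.88% of counts from mitochondrial genes against 5.20% to 8.83% in the others. The part of these differences in the results below was not tested.

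The 2 gamma genes are near-identical, which limits what can be said of each alone. The coding sequences of HBG1 and HBG2 are both 444 bases long and are identical at 442 of them (99.55%). HBD and HBB share 93.0% of aligned coding bases, and HBE1 shares 83.6% with either gamma gene. The stretches around both coding differences are shown because reads outside them cannot tell HBG1 from HBG2 within the coding sequence. They are from GENCODE 29 transcripts (GRCh38.p12, minus strand), in coding orientation, with the differing base in capitals.
HBG1 at chr11:5249426-5249486: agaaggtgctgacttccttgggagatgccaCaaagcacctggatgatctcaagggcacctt
HBG2 at chr11:5254350-5254410: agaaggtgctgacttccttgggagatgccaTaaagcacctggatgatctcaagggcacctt
HBG1 at chr11:5248363-5248423: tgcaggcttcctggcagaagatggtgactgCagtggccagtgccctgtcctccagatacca
HBG2 at chr11:5253281-5253341: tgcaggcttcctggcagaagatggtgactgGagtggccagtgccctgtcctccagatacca

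Read from HBG1 to HBG2, with positions counted from 1 at the first base of the start codon, the differences are C227T and C410G. The second lies in codon 137 and is the alanine-to-glycine difference for which the A-gamma and G-gamma chains are named. Of all 150-base words in HBG2 transcripts, 50.5% also occur in transcripts of other genes, against 19.6% for HBG1, 57.7% for HBE1 and 0% for BGLT3, HBD and HBB. Exons of AC104389.5, a read-through model that joins both gamma genes on the same strand, cover 49.8% of the exon length of HBG2 and 13.1% of that of HBG1. AC104389.4, a long model on the same strand, covers 81.3% of the exon length of HBE1 and 34.3% of that of HBG2. How reads in shared exons were assigned, or whether they were dropped, is not given in the sources used here. The split of counts between HBG1, HBG2, AC104389.5, AC104389.4 and HBE1 is therefore uncertain.

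Per kilobase of gene length, HBG1 was the highest of the 6 genes in every group. Its level was 118 ± 54.1 RPKM (CPM per kilobase, SD, n = 3 here and below) in mock DMSO, 988 ± 371 in mock nilotinib, 211 ± 32.0 in hemin DMSO and 1110 ± 194 in hemin nilotinib. HBG2 came next, with 19.7 ± 3.56, 81.6 ± 15.7, 38.4 ± 9.22 and 108 ± 10.03 RPKM in the same order. In 3 groups the order then ran from BGLT3 through HBD and HBE1 to HBB, whereas in hemin DMSO HBD (4.30 ± 1.14 RPKM) stood above BGLT3 (2.50 ± 0.633 RPKM). The only neighbours whose libraries overlapped were HBD and HBE1 in mock DMSO, and HBD and BGLT3 in hemin DMSO. HBB was lowest in every group, from 0.139 ± 0.129 RPKM in mock DMSO to 0.860 ± 0.604 RPKM in hemin DMSO.

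**Figure D1:**
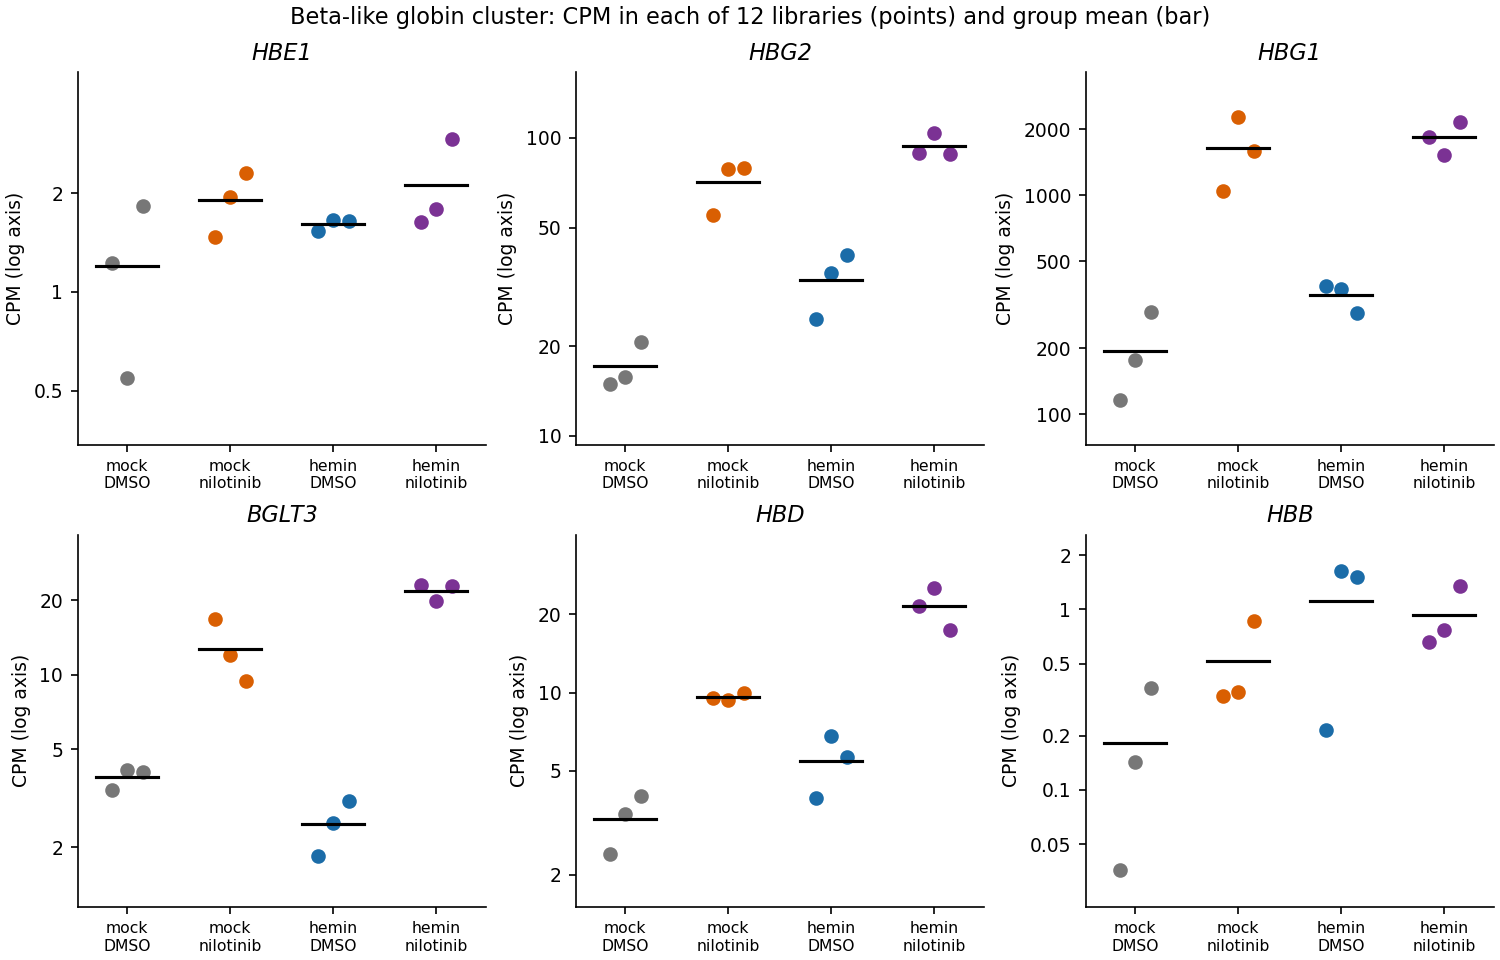
CPM of each gene (y axis, log scale, a separate range per panel) in the 12 libraries, by group (x axis). Points are libraries and bars are group means. For HBG1 the mock nilotinib libraries (1045 to 2273 CPM) and the hemin nilotinib libraries (1519 to 2161 CPM) all sit above every library without nilotinib, whereas the HBE1 groups overlap. Within a hemin state, nilotinib and DMSO libraries did not overlap for 61% (without hemin) and 63.5% (with hemin) of all tested genes.

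Nilotinib raised 4 of the 6 genes without hemin, HBG1, HBG2, BGLT3 and HBD, and the same 4 with hemin. Without hemin, 42.5% of the 20821 tested genes passed the threshold in either direction and 20.7% of the tested genes passed it upward, and with hemin these shares were 64.2% and 32.4%. The median log2 fold change over the 6 genes was 1.64 without and 1.73 with hemin, against 0.00 and 0.02 over all tested genes. Hemin raised 4 of the 6 without nilotinib, HBB, HBG2, HBG1 and HBD, and BGLT3 fell, in a comparison in which 53.6% of genes passed the threshold. When hemin was added to nilotinib, HBD and BGLT3 rose and the other 4 did not pass, in a comparison in which 5.8% of genes did. These calls are from edgeR's quasi-likelihood test at a Benjamini-Hochberg adjusted p under 0.05, and the comparisons share groups with one another.

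**Figure D2:**
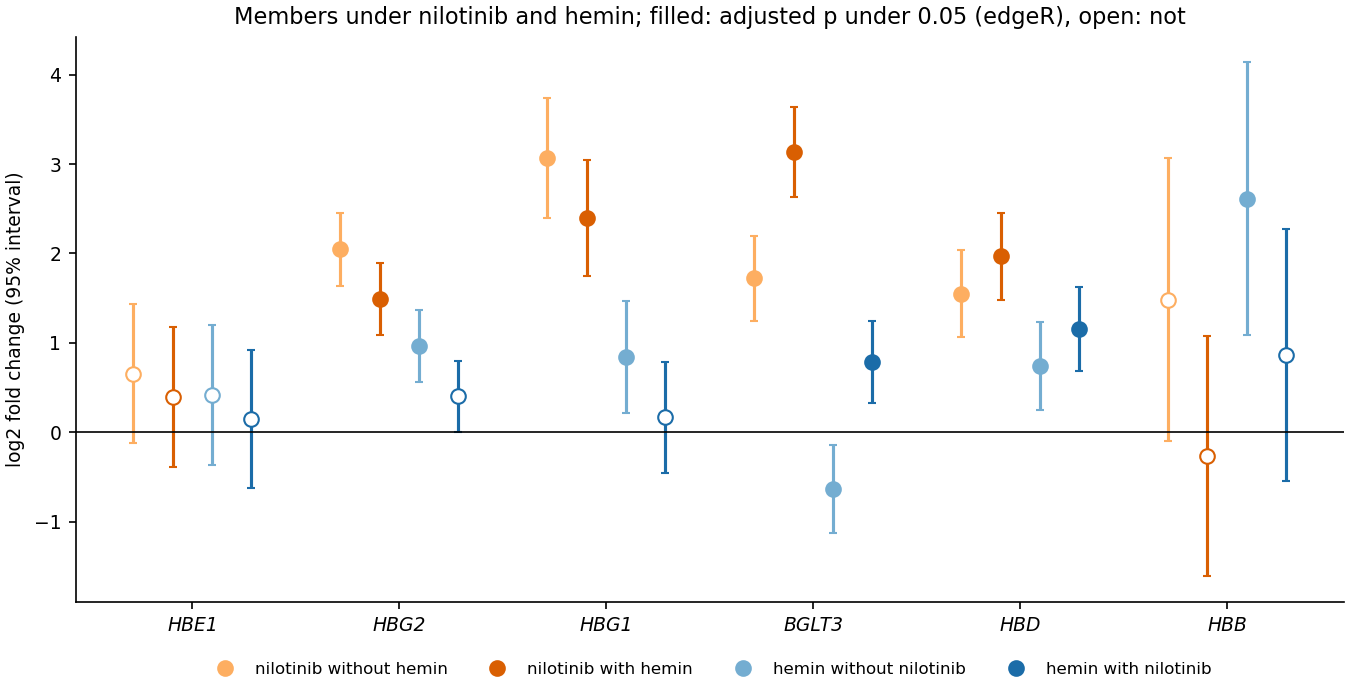
Log2 fold changes (y axis) of the 6 genes (x axis) in 4 comparisons (colours), with 95% intervals from edgeR's quasi-likelihood fit. Filled points passed an adjusted p under 0.05 and open points did not. BGLT3 is the gene whose hemin change lies below 0 without nilotinib (-0.63) and above 0 with it (0.78), and the intervals of HBB are the widest.

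The embryonic gene HBE1 (ENSG00000213931) passed the threshold in none of the 7 contrasts. It is listed on chromosome 11 from 5268345 to 5505652 on the minus strand, and its row held 23 to 125 counts per library. Its levels were 1.22, 0.549 and 1.83 CPM in mock DMSO, 1.47, 1.95 and 2.31 in mock nilotinib, 1.53, 1.66 and 1.65 in hemin DMSO, and 1.64, 1.78 and 2.92 in hemin nilotinib. Mock DMSO replicate 2 was the lowest library and hemin nilotinib replicate 3 the highest, and the groups overlapped. Its log2 fold change with nilotinib was 0.66 (SE 0.369, edgeR adjusted p = 0.165) without hemin and 0.39 (SE 0.368, adjusted p = 0.358) with it. With both agents against neither, it was 0.81 with a 95% interval of 0.03 to 1.59 and an adjusted p of 0.081. Without mock DMSO replicate 3 the nilotinib change without hemin passed, at 1.06 (edgeR adjusted p = 0.0489), as did both agents against neither, at 1.21 (adjusted p = 0.0243), and the latter also without hemin nilotinib replicate 1, at 0.96 (adjusted p = 0.0425).

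Most of the exon length of HBE1 is shared with AC104389.4, so the rows of both were also summed before the fit, a choice made after the data were seen. The summed row held 139 to 523 counts per library. By edgeR's quasi-likelihood test it was higher with nilotinib than without in the absence of hemin, by 0.75 on the log2 scale (SE 0.253, adjusted p = 0.0256). It was also higher with hemin in the absence of nilotinib (0.69, SE 0.254, adjusted p = 0.0304) and with both agents against neither (1.13, SE 0.253, adjusted p = 0.00174). Nilotinib in the presence of hemin gave 0.44 (adjusted p = 0.134), and these values cannot be assigned to HBE1 alone. AC104389.4 also covers 34.3% of the exon length of HBG2, so the summed row may hold gamma reads as well.

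HBG1 (ENSG00000213934, chromosome 11, 5248079 to 5249859, minus strand), the A-gamma gene, carried most of the counts of the cluster. It was at 116, 176 and 293 CPM in mock DMSO, 1045, 2273 and 1598 in mock nilotinib, 385, 374 and 288 in hemin DMSO, and 1842, 1519 and 2161 in hemin nilotinib. All 6 nilotinib libraries lay above all 6 DMSO libraries, with a wide gap between them. Within a hemin state, nilotinib and DMSO libraries also did not overlap for 61% (without hemin) and 63.5% (with hemin) of all tested genes. With nilotinib HBG1 rose 8.40-fold without hemin (log2 3.07, SE 0.316, adjusted p = 1.09e-06) and 5.27-fold with hemin (log2 2.40, SE 0.307, adjusted p = 4.93e-06, both edgeR). With hemin alone it rose 1.79-fold (log2 0.84, SE 0.294, adjusted p = 0.0241), but hemin DMSO replicate 3 lay within the range of mock DMSO. That call passed in 18 of 23 alternatives. Among others, it was lost without mock DMSO replicate 1 (log2 0.51, edgeR adjusted p = 0.154) or 2 (0.76, adjusted p = 0.081), and without hemin DMSO replicate 1 (0.77, adjusted p = 0.067) or 2 (0.79, adjusted p = 0.0626). Adding hemin to nilotinib gave a log2 fold change of 0.17 with a 95% interval of -0.45 to 0.79.

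HBG2 (ENSG00000196565, chromosome 11, 5253190 to 5505605, minus strand), the G-gamma gene, followed the same order of groups at a lower level. Its values were 15.0, 15.8 and 20.7 CPM in mock DMSO, 55.2, 78.5 and 79.1 in mock nilotinib, 24.6, 35.2 and 40.4 in hemin DMSO, and 88.9, 104 and 88.3 in hemin nilotinib. No library of one group overlapped with another group, as was the case for 23.3% to 70.2% of all tested genes in each of the 6 pairs of groups. With nilotinib it rose 4.13-fold without hemin (log2 2.05, SE 0.194, adjusted p = 4.58e-07) and 2.80-fold with hemin (log2 1.49, SE 0.190, adjusted p = 4.78e-06, both edgeR). Hemin alone raised it 1.95-fold (log2 0.96, SE 0.190, adjusted p = 0.000489). Hemin on top of nilotinib gave 0.40 (SE 0.186, adjusted p = 0.222), although all 3 hemin nilotinib libraries lay above all 3 mock nilotinib libraries.

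Because reads may be shared out between the gamma rows in more than one way, HBG1, HBG2 and AC104389.5 were also summed into 1 row, again after the data were seen. AC104389.4, which overlaps HBG2 too, was left out of this sum. The summed row held 7782 to 17208 counts in mock DMSO and 64592 to 101140 in hemin nilotinib. With nilotinib it rose 7.97-fold without hemin (adjusted p = 7.31e-07) and 5.08-fold with hemin (adjusted p = 3.27e-06), and with hemin alone 1.80-fold (adjusted p = 0.0166, all edgeR). It did not pass for hemin on top of nilotinib (log2 0.20, adjusted p = 0.716) or for the interaction, the difference between the nilotinib changes with and without hemin (-0.65, adjusted p = 0.224). AC104389.5 on its own changed by 2.69 and 2.47 on the log2 scale with nilotinib, without and with hemin.

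BGLT3 (ENSG00000260629, chromosome 11, 5244554 to 5245546, minus strand) was the gene whose response to nilotinib differed between the hemin states. It shares no exon with another annotated gene. It was at 3.42, 4.13 and 4.06 CPM in mock DMSO, 16.8, 12 and 9.43 in mock nilotinib, 1.84, 2.52 and 3.09 in hemin DMSO, and 23.1, 19.8 and 22.9 in hemin nilotinib. Hemin DMSO was lowest and hemin nilotinib highest, and the 4 groups did not overlap, which in single pairs of groups held for 23.3% to 70.2% of all tested genes.

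With nilotinib BGLT3 rose 3.30-fold without hemin (log2 1.72, SE 0.225, adjusted p = 1.41e-05) and 8.79-fold with hemin (log2 3.14, SE 0.240, adjusted p = 1.85e-08). The interaction was 1.41 on the log2 scale (SE 0.317, adjusted p = 0.00364, edgeR), and 30.1% of all tested genes passed the same test. With hemin alone BGLT3 changed by -0.63 on the log2 scale (SE 0.233, adjusted p = 0.0308), while hemin added to nilotinib raised it by 0.78 (SE 0.216, adjusted p = 0.0435). The interaction passed in all 22 alternatives, at 1.23 to 1.68, whereas the fall with hemin alone passed in 18 of 23 and the rise on top of nilotinib in 13 of 23. The fall was lost without mock DMSO replicate 2 (-0.60) or 3 (-0.64) and without hemin DMSO replicate 1 (-0.45) or 2 (-0.63). The rise on top of nilotinib was lost without any 1 mock DMSO library (0.78 to 0.79), without mock nilotinib replicate 2 (0.72) or 3 (0.58), and without hemin nilotinib replicate 2 (0.83) or 3 (0.74). For the other 5 genes the interaction was -0.26 for HBE1, -0.56 for HBG2, -0.67 for HBG1, 0.42 for HBD and -1.75 for HBB, with adjusted p of 0.121 or higher. Without hemin DMSO replicate 1 the interaction of HBG2 passed, at -0.75 (edgeR adjusted p = 0.0311), and with all genes of at least 1 count that of HBG1 did, at -0.61 (adjusted p = 0.0432).

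HBD (ENSG00000223609, chromosome 11, 5232678 to 5243657, minus strand), the delta gene, is the only one of the 6 with an entry among the promoter sequences used, and those of HBE1, HBG2, HBG1, BGLT3 and HBB are not shown. The 250 bases before its RefSeq start (GRCh38.p14, minus strand, chr11:5234484-5234733) are given because this gene moved with nilotinib and with hemin, with motif matches in capitals.
HBD promoter: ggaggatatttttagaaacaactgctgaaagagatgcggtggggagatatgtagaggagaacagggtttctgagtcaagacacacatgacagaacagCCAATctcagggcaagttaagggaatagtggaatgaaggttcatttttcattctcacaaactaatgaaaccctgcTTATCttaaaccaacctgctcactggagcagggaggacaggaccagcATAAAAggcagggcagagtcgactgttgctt

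Both strands were searched for 4 motifs. GATA1 and other GATA factors bind the letters GATAA. NF-Y binds the letters CCAAT. KLF1 and its relatives bind the letters CACCC. The letters ATAAAA are a form of the TATA box. A CCAAT match lies at -153 to -149 from the start, a GATAA match on the opposite strand at -78 to -74, and an ATAAAA match at -31 to -26, without overlap between them. The letters CACCC are not in this window. Over the same 250 bases of 35116 RefSeq promoters, 32.0% hold CCAAT, 20.4% GATAA, 54.7% CACCC and 14.8% ATAAAA on either strand. A match describes the sequence and does not show that a factor binds there.

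HBD was at 2.41, 3.41 and 4 CPM in mock DMSO, 9.51, 9.33 and 9.92 in mock nilotinib, 3.92, 6.80 and 5.68 in hemin DMSO, and 21.6, 25.3 and 17.4 in hemin nilotinib. The mock nilotinib libraries were the tightest, and hemin DMSO replicate 1 lay within the range of mock DMSO. With nilotinib HBD rose 2.93-fold without hemin (log2 1.55, SE 0.230, adjusted p = 5.05e-05) and 3.92-fold with hemin (log2 1.97, SE 0.230, adjusted p = 1.79e-06, both edgeR). Hemin raised it 1.67-fold alone (adjusted p = 0.0127) and 2.23-fold on top of nilotinib (adjusted p = 0.00862). The first call passed in 20 of 23 alternatives and the second in 21 of 23. The first was lost, among others, without mock DMSO replicate 1 (log2 0.49) or hemin DMSO replicate 2 (0.56). The second was lost without replicate 2 of mock nilotinib (1.12) or of hemin nilotinib (1.001). HBD passed the test upward in each of these 4 comparisons, and HBG2 in the first 3.

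HBB (ENSG00000244734, chromosome 11, 5225464 to 5229395, minus strand), the adult beta gene, had the fewest counts, between 2 and 60 per library. Its values were 0.036, 0.143 and 0.365 CPM in mock DMSO, 0.330, 0.350 and 0.865 in mock nilotinib, 0.214, 1.63 and 1.52 in hemin DMSO, and 0.661, 0.769 and 1.36 in hemin nilotinib. A count of 3 corresponds to 0.0540 to 0.0957 CPM in these libraries, and mock DMSO replicate 1 was below it. Hemin alone raised HBB by 2.61 on the log2 scale (SE 0.720, 95% interval 1.09 to 4.14, edgeR adjusted p = 0.00605). It passed in all 22 alternatives, at 2.03 without mock DMSO replicate 1, 3.64 without mock DMSO replicate 3, and 0.66 with limma on log2(FPKM + 1), a scale that understates changes of low genes. Hemin DMSO replicates 2 and 3 were high, and replicate 1 lay within the mock DMSO range. Nilotinib gave 1.48 (SE 0.748, adjusted p = 0.122) without hemin and -0.27 (SE 0.633, adjusted p = 0.726) with it. The hemin nilotinib libraries of HBB all lay above mock DMSO, and libraries of these 2 groups did not overlap for 54.9% of all tested genes. With both agents against neither HBB rose by 2.35 (SE 0.720, edgeR adjusted p = 0.0139). That call was lost without mock DMSO replicate 1 (1.79, adjusted p = 0.0639) or hemin nilotinib replicate 3 (1.93, adjusted p = 0.054), and with limma on log2(FPKM + 1) (0.57, adjusted p = 0.0583), and without mock DMSO replicate 3 it was 3.40. Nilotinib without hemin passed in 3 of 22 alternatives, which were without mock DMSO replicate 3 (2.54, adjusted p = 0.038), with all genes of at least 1 count (1.45, adjusted p = 0.0188) and with the replicate block (1.62, adjusted p = 0.0277).

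Further contrasts place the agents side by side. In hemin nilotinib against mock DMSO, 5 of the 6 genes rose and HBE1 did not pass, in a comparison in which 46.6% of all genes passed. The log2 fold changes were 3.24 for HBG1, 2.71 for HBD, 2.50 for BGLT3, 2.45 for HBG2 and 2.35 for HBB. In mock nilotinib against hemin DMSO, 4 of the 6 were higher with nilotinib, by 2.35 for BGLT3, 2.23 for HBG1, 1.09 for HBG2 and 0.81 for HBD, while 65.8% of all genes passed. HBB (-1.13, edgeR adjusted p = 0.145) and HBE1 (0.24, adjusted p = 0.581) did not pass, with 95% intervals of -2.54 to 0.28 and -0.54 to 1.02. Without hemin DMSO replicate 1, HBB passed, at -1.61 (adjusted p = 0.0268), as it did with all genes of at least 1 count, at -1.08 (adjusted p = 0.0387).

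The makeup of the cluster was then computed per library from levels per kilobase. The gamma genes together made up 98.6% to 99.9% of gamma plus epsilon in every library. This share counts epsilon by the HBE1 row alone. Other genes on the same strand overlap 90.0% of the exon length of HBE1, which leaves 96 of 961 bases of its own. Reads there may have been dropped or counted elsewhere, so the epsilon level may be understated. HBG1 was 84.6 ± 3.98% of HBG1 plus HBG2 in mock DMSO, 92.0 ± 1.58% in mock nilotinib, 84.3 ± 5.12% in hemin DMSO and 90.9 ± 2.21% in hemin nilotinib. This share was higher with nilotinib by a mean of 7.04 percentage points (exact permutation test within hemin states, two-sided p = 0.01, adjusted p = 0.03 over 6 quantities and both agents). The call was lost without mock nilotinib replicate 2 (6.59 points, exact permutation adjusted p = 0.06) or hemin nilotinib replicate 1 (6.89 points, adjusted p = 0.06). Taken from raw counts and not per kilobase, the difference was 4.19 points (adjusted p = 0.03, exact permutation test). The split rests on how reads of near-identical exons were assigned.

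HBB and HBD together were 1.94 ± 0.263% of the cluster in mock DMSO, 0.793 ± 0.281% in mock nilotinib, 2.01 ± 0.692% in hemin DMSO and 1.44 ± 0.441% in hemin nilotinib. The share was lower with nilotinib by 0.859 percentage points (exact permutation test, p = 0.02, adjusted p = 0.048), a call lost, at -0.934 to -0.752 points, without any 1 of the mock DMSO libraries, mock nilotinib replicate 2, hemin DMSO replicate 2 or 3, or hemin nilotinib replicate 1 or 3. Summed over the 6 genes, levels were 221 ± 94.4 CPM in mock DMSO, 1734 ± 624 in mock nilotinib, 393 ± 45.7 in hemin DMSO and 1981 ± 312 in hemin nilotinib. The rise with nilotinib had the smallest p that 400 arrangements can give (exact permutation test, p = 0.005, adjusted p = 0.02). None of the 6 quantities passed for hemin, and for the summed level of the 6 genes the exact permutation p was 0.315. The hemin differences were averaged over both nilotinib states and were not tested within a single state. Without nilotinib the sums did not overlap (138 to 324 CPM in mock DMSO, 341 to 422 in hemin DMSO). Of all tested genes, 62.7% did not overlap in that pair of groups. With nilotinib the sums overlapped (1128 to 2375 CPM without hemin, 1671 to 2294 with it). The share of HBB and HBD passed for hemin without hemin DMSO replicate 1 (0.562 points, adjusted p = 0.03).

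BGLT3 per 1000 of gamma-globin level was 31.1 ± 9.74 in mock DMSO, 13.9 ± 9.07 in mock nilotinib, 10.3 ± 3.58 in hemin DMSO and 18.3 ± 1.64 in hemin nilotinib. Its difference averaged over hemin states was -4.59 for nilotinib (exact permutation p = 0.425, adjusted p = 0.464). This average joins a lower mean with nilotinib without hemin and a higher one with hemin, so it describes neither state. With hemin the nilotinib libraries (16.4 to 19.3) all lay above the DMSO libraries (7.11 to 14.1). Without hemin they overlapped (8.29 to 24.3 against 20.4 to 39.4). The ratio was not tested within a single hemin state. The 3 highest values were mock DMSO replicates 1 and 2 and mock nilotinib replicate 1.

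**Figure D3:**
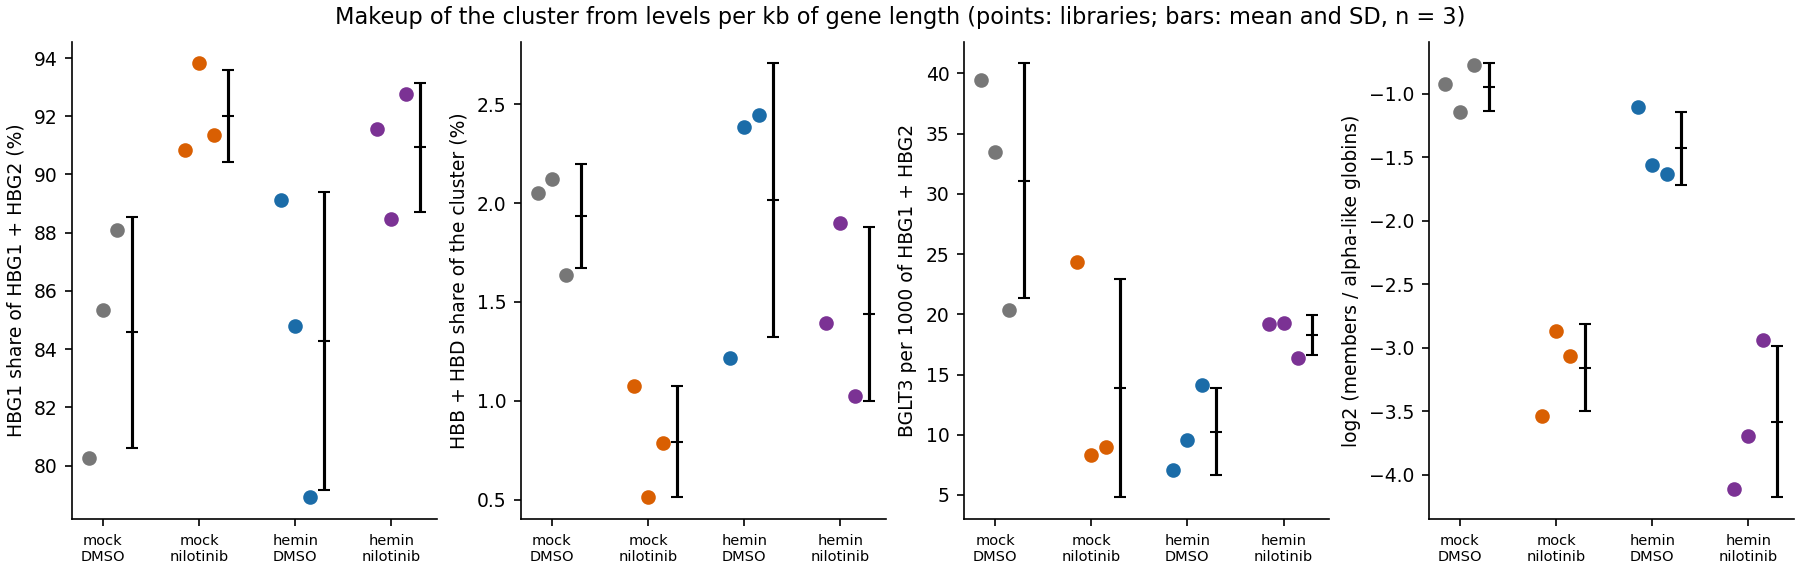
Measures of the makeup of the cluster (y axes, from levels per kilobase) in the 12 libraries by group (x axes). Points are libraries and the black marks are means with SD (n = 3). HBG1 averaged 92.0% of HBG1 plus HBG2 in mock nilotinib against 84.6% in mock DMSO, and the ratio to alpha-like globins was lower in all nilotinib libraries.

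The summed level of the alpha-like globin genes rose further than that of the 6 genes, of which BGLT3 encodes no chain. These are sums of RNA, and pairing of chains was not measured. Summed over HBA1, HBA2, HBZ, HBM and HBQ1, levels were 178 to 360 RPKM in mock DMSO, 8338 to 10802 in mock nilotinib, 576 to 816 in hemin DMSO and 11061 to 21692 in hemin nilotinib. The 6 genes of the beta-like cluster summed to 93.9 to 210 RPKM, 720 to 1482, 231 to 277 and 1077 to 1445 in the same order. The log2 ratio of the 6 genes to the alpha-like genes was -0.95 ± 0.19 in mock DMSO, -3.16 ± 0.34 in mock nilotinib, -1.43 ± 0.28 in hemin DMSO and -3.58 ± 0.60 in hemin nilotinib. Its difference with nilotinib was -2.18 (exact permutation test, p = 0.005, adjusted p = 0.02), and with hemin -0.45 (p = 0.06, adjusted p = 0.12), which passed without hemin nilotinib replicate 3 (-0.61, adjusted p = 0.048). All 7 of HBA1, HBA2, HBZ, HBM, HBQ1, HBZP1 and AHSP, the chaperone of free alpha chains, rose with nilotinib in either hemin state, with medians of 5.49 and 4.83 on the log2 scale. HBQ1 rose least, by 1.85 without hemin and 1.72 with it, which is less than HBG1 did (3.07 and 2.40).

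**Figure D4:**
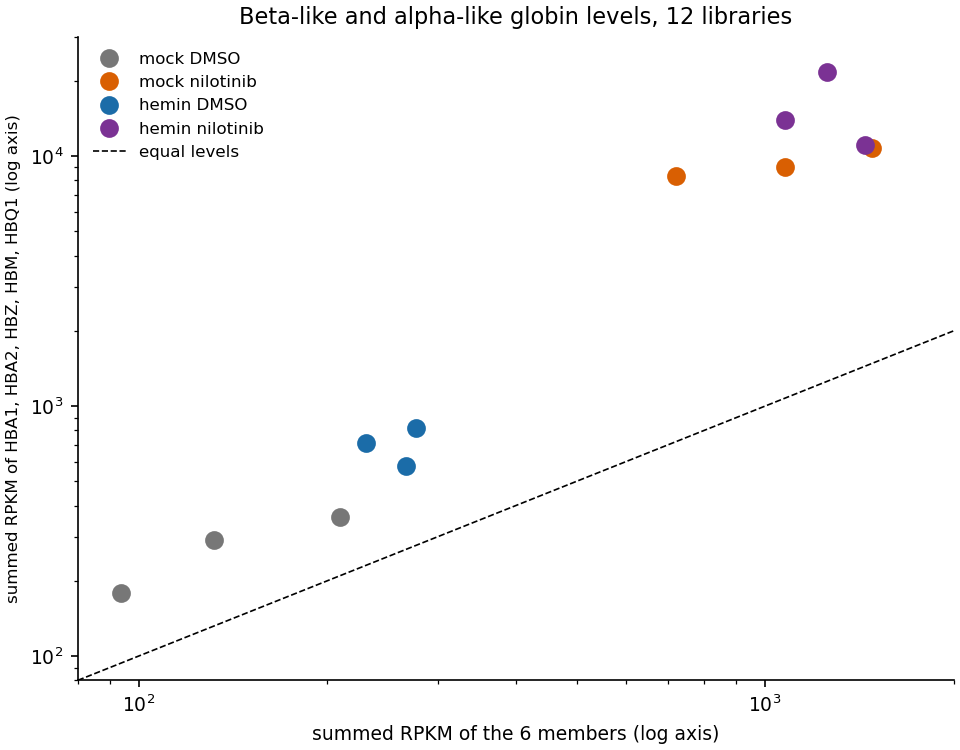
Summed RPKM of HBE1, HBG2, HBG1, BGLT3, HBD and HBB (x axis, log scale) against summed RPKM of 5 alpha-like globin genes (y axis, log scale) in the 12 libraries, coloured by group. The dashed line marks equal sums. All libraries lie above it, and the nilotinib libraries lie furthest from it, at 8338 to 21692 RPKM of alpha-like globins.

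Around the cluster, the count table lists 40 other genes within 100 kb of its listed ends, most of them olfactory receptor genes. Of them, 23 were tested. The listed spans of HBE1 and HBG2 run to 5505652 and 5505605, so this window reaches to 5605652. By its 3′ end HBE1 lies 42.9 kb from the 3′ end of HBB, but UBQLNL lies 289 kb and TRIM6 387 kb from it. Of the 23 tested, 10 rose and 2 fell with nilotinib in each hemin state, with median log2 fold changes of 0.88 in both. That is 52.2% of those tested, against 42.5% of all genes without hemin and 64.2% with it. The genes that rose include AC104389.5 in both hemin states and AC104389.4 without hemin. Their exons overlap those of the gamma genes and of HBE1, so these rows may hold reads of the cluster itself. HBBP1, the pseudogene between HBG1 and HBD, rose by 1.41 (SE 0.268) without hemin and by 2.03 with it. OR52A1 (3.17 and 2.09) and OR52A5 (2.48 and 2.76), which lie beyond HBB, rose in both. OR51A1P, on the same side, also passed in both, but it held 0 to 2 counts per library in mock DMSO and 0 to 5 in hemin DMSO against 41 to 195 with nilotinib, so its fold change depends on the prior count and is not given. OR51B5, beyond HBE1 and overlapping it, fell by 0.64 and 1.29, and TRIM6, further on the same side, fell by 3.12 and 2.60. Other genes on that side rose in 1 hemin state, such as UBQLNL (1.36), OLFM5P (1.48) and OR52V1P (2.73) without hemin and OR51AB1P (1.69), OR51B8P (1.40), OR51M1 (1.59) and OR51I2 (1.93) with it.

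Regulators of the locus were taken from a list of 14 activators and 22 repressors or partners of repressors. Of the activators, 7 rose and 2 fell with nilotinib without hemin, and 10 rose and 4 fell with hemin, with medians of 0.38 and 1.01. These are 64.3% and 100% of the list, against 42.5% and 64.2% of all genes. Hemin alone raised 2 and lowered 9 of them, with a median of -0.85, while HBG1, HBG2, HBD and HBB rose in the same comparison. KLF1, the erythroid factor that binds CACCC motifs, changed by 1.37 and 4.71 with nilotinib (without and with hemin) and by -3.57 with hemin alone. BGLT3 was the gene of the cluster with the same 3 signs. These directions were not particular to KLF1, since the group means of most listed activators also had them. These were TAL1, LDB1, LMO2, NFE2, GATA1, ZFPM1, TRIM33, NFYA and NFYC. Those of the listed activators KLF2, KLF4, NFYB and HBS1L moved the opposite way in all 3. Some of these differences were small, such as NFYA at 28.3 CPM in mock DMSO and 28.7 in mock nilotinib. Any link between these factors and the genes of the cluster was not tested. GATA1, the main erythroid GATA factor, rose by 1.005 with nilotinib under hemin and fell by 0.91 with hemin alone, and without hemin its 0.34 did not pass (edgeR adjusted p = 0.0572).

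Of the 21 repressors tested, 8 rose and 4 fell with nilotinib without hemin, 8 rose and 3 fell with hemin, and 3 rose and 9 fell with hemin alone. The shares called, 57.1%, 52.4% and 57.1%, lie near those of all genes (42.5%, 64.2% and 53.6%). MYB, which holds back fetal globin, fell by 3.08 with nilotinib and by 2.76 with hemin alone, while HBG1 and HBG2 rose in both comparisons. With nilotinib under hemin, where HBG1 rose 5.27-fold, MYB changed by -0.27 (edgeR adjusted p = 0.196). ZBTB7A, another repressor of the gamma genes, rose by 0.59 with nilotinib alone and by 0.54 with hemin alone. The row of BCL11A did not pass the filter on low counts. Whether MYB, ZBTB7A or any other listed repressor bears on the gamma genes in these cells was not tested. LIN28B, a factor of the fetal programme, fell by 2.03 and 1.05 with nilotinib, and EIF2AK1, the heme-regulated kinase that limits globin translation, rose by 1.02 and 1.44.

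Across the 12 libraries, HBG1 and HBG2 had a Pearson r of 0.95 on log2 CPM, HBG2 and HBD also 0.95, and BGLT3 and HBB 0.25. These values follow from the 4 groups and are given without a test. The names that follow depend on the measure, since by Spearman's rho 13 of the 18 were not among the 3 highest ranks (ELL2 ranked 139 for HBG1, AL731661.1 94 for HBE1 and SNX22 14 for HBG2). Among 12482 genes outside the region with a mean of at least 100 counts, those most like HBG2 were SNX22 (r = 0.986), HBA2 (0.980) and RHAG (0.977), the last a membrane protein of red cells. For HBG1 they were ASAP1 (0.985), ELL2 (0.981) and HBA2 (0.980). HBD was closest to UCP2 (0.964), RHAG (0.963) and PSMD9 (0.959), and BGLT3 to RPL23AP24 (0.985), LINC02323 (0.982) and ATP9B (0.980). HBE1 (ZUP1, FRG1JP and AL731661.1, at most 0.819) and HBB (ENTPD3-AS1, REM2 and ZNF131, at most 0.895) had no gene above 0.9, whereas BGLT3 had 576, HBG1 253, HBG2 155 and HBD 51.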

How the data were processed

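Total RNA of K562 cells in 12 libraries, 3 per group, was sequenced as 150-base paired-end reads by a service. The authors deposited raw read counts per gene, which were the input of the tests. They also deposited FPKM, in which the counts per kilobase are divided by a size factor of each library, and these FPKM values were used in alternatives alone. The submitters' notes name GRCh38.p12 and DESeq2, and the aligner, counter and strand setting are not given in the sources used here. All 58735 identifiers, names and positions matched GENCODE 29.

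Counts were fitted in R 4.3.3 with edgeR 4.0.16 (filterByExpr with a minimum count of 10, TMM, quasi-likelihood, 1 mean per group over all 12 libraries), and p-values were adjusted over 20821 genes by Benjamini-Hochberg. SE is the log2 fold change divided by the square root of F. CPM and RPKM use TMM-scaled totals. Quantities of makeup were compared by exact two-sided permutation of libraries within the strata of the other agent (400 arrangements). Pairs of groups were not permuted, since 3 against 3 libraries cannot give a p under 0.1. Alternatives used DESeq2 1.42.0, limma 3.58.1 on log2(FPKM + 1) and log2(FPKM + 0.1), other scalings, filters and fits, and each library left out. The sums of overlapping rows were added after the data were seen. Procedures were tested on simulated data. Python 3.11.15 was used for annotation and figures.

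The genes, lists and tests were chosen with earlier results of these data known. Named genes are the 6 of the cluster, those within 100 kb, other globins, regulators, and the 3 genes of highest Pearson r to each. SNX22, ASAP1 and the other most similar genes come from that last step, and the regulators given with values are those beside which a result of the cluster stands. Replicates of a group differed by more than counting noise. Replicate numbers were taken as pairs where deviations of same-numbered libraries correlated above 0.1 in all 3 pairs. Mock nilotinib and hemin nilotinib met this (0.231 to 0.293), and 3 other pairs of groups fell just short (lowest 0.0885 to 0.0985). The values printed are from the fit without a block, and the block is an alternative. The 3-count limit covers counting error only. Whether replicates were separate cultures is not stated beyond the word biological, so p-values measure the spread between these libraries.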

Additional observations from a re-analysis of the deposited data

Results flagged for a closer look

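BGLT3 is listed here because its response to nilotinib differed between the hemin states by the test of the difference itself, by 1.41 on the log2 scale (edgeR's quasi-likelihood test, adjusted p = 0.00364). Its log2 fold change was 1.72 without hemin and 3.14 with it. UBQLNL, on the far side of HBE1 and 289 kb from the 3′ end of HBB, differed in the other direction, by -1.44 (edgeR adjusted p = 0.013). Its log2 fold change was 1.36 without hemin and -0.08 with it. Among all tested genes, 30.1% passed this test.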

How the results depend on the processing

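The rises of HBG1, HBG2, BGLT3 and HBD with nilotinib passed in all 23 alternatives in both hemin states. The hemin calls were less stable. For hemin without nilotinib, 3 of the 6 genes passed without composition factors, and 2 to 5 with each library left out. Over all genes, 11156 were called there, against 8539 to 12521 with other settings and 9925 to 12504 with each library left out. For hemin with nilotinib, 1 gene passed without composition factors, with the libraries of the comparison alone and with limma on log2(FPKM + 0.1), and 0 to 2 with each library left out. Over all genes, that comparison called 1208, against 1987 with all genes of at least 1 count, 183 with its libraries alone, 1902 with DESeq2, 741 with limma on log2(FPKM + 1), 694 on log2(FPKM + 0.1), and 213 to 2793 with each library left out. The interaction was called for 2 genes of the cluster with all genes of at least 1 count, and for 1 to 2 with each library left out. Over all genes it was called for 6271, against 5373 to 6845 with other settings and 4862 to 6775 with each library left out.

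With each library left out, uncalled fold changes that crossed 0 were those of HBB for nilotinib with hemin (-0.75 to 0.083), HBE1 (-0.16 to 0.30) and HBG1 (-0.074 to 0.45) for hemin with nilotinib, and the interaction of HBE1 (-0.65 to 0.083). The share of HBG1 in the gamma genes differed by 5.71 to 8.26 points with nilotinib and by -1.90 to 0.649 with hemin, that of HBB and HBD by -1.06 to -0.752 and 0.247 to 0.562, and the log2 ratio to alpha-like genes by -0.61 to -0.32 with hemin. The cause of these changes was not tested.

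With the replicate block, 5 genes of the cluster passed for nilotinib without hemin (HBB added, 1.62, adjusted p = 0.0277) and 6 for both agents (HBE1 added, 0.83, adjusted p = 0.0422). Over the settings that kept every library, the block among them, 7098 to 10799 of all genes were called for nilotinib without hemin, against 8851. For both agents these settings called 7628 to 10134 of all genes, against 9698. For hemin with nilotinib, where the numbers pair the libraries, the replicate block called the same number of genes of the cluster, 2, and 1587 of all genes. No other call of the 6 genes changed with it. Counts of 2 to 60 for HBB and 23 to 125 for HBE1 limit what can be detected for both. A minimum of 10 counts in every library removes HBB, which then has no value.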
